A study of Mus musculus with 12 samples.

Results

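The genes described here are 5 Hox genes (Hoxa5, Hoxa7, Hoxa9, Hoxa10 and Hoxb4), the cofactor genes Meis1 and Pbx3, and Mn1, a gene for a transcriptional coactivator. They were selected by symbol, with their values in all 12 libraries known, and are 8 of the 55450 genes counted. All 8 passed the filter on low counts, as did 14346 genes in all. RNA was sequenced from donor-derived bone marrow cells that lack lineage markers and carry the receptor Kit, a gate that holds stem and progenitor cells. They came from recipients of competitive transplants, in which donor marrow competes with other marrow in the same animal. The 4 genotype labels, with 3 libraries each, were WT, Tet2KO (loss of Tet2, a dioxygenase that oxidises methylated cytosine in DNA), Id1KO (loss of Id1, an inhibitor of basic helix-loop-helix factors) and dKO (loss of both). All groups share the transplant setting. The kind of deleted allele, any Cre driver, the age of the mice and the number of animals pooled are not given in the sources used here.

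Hox genes encode homeodomain transcription factors and lie in 4 clusters, HoxA to HoxD. In blood formation, HoxA genes of the middle and 5′ part of the cluster are active in stem and progenitor cells and are turned down as cells mature. Hox proteins bind DNA together with homeodomain partners of the TALE class, the Pbx and Meis proteins, and Hoxa9 with Meis1 is a well-known pair in acute myeloid leukemia. MN1 is often high in leukemias that also depend on HOXA9 and MEIS1.

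Library totals ran from 15706407 to 19959183 estimated counts. Levels are given in CPM, CPM standing for counts scaled to a common library total after TMM, with the SD of 3 libraries (n = 3) after ±. Libraries labelled null for Tet2 or Id1 did not have less of that transcript, so genotype names are only the labels of the libraries. Tet2 stood at 99.3 ± 2.2 CPM in WT and 92 ± 1.5 in Id1KO, but at 130 ± 2.5 in Tet2KO and 118 ± 3.1 in dKO. Id1 stood at 1.47 ± 0.27 CPM in WT and at 3.86 ± 0.42, 3.96 ± 0.34 and 3.93 ± 0.5 in Tet2KO, Id1KO and dKO. Gene counts do not show whether part of a transcript is missing. The titles give the 3 libraries of a genotype 1 sample number, so they may be repeats of 1 cell sample. Tests then measure only the spread between libraries, and genotype and cell sample cannot be told apart.

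The summed levels of lists of cell type markers moved with the labels. The summed level of 24 erythroid markers was 1380 to 1390 CPM in libraries labelled Tet2KO, against 2300 to 2360 in WT, 2530 to 2560 in Id1KO and 2320 to 2340 in dKO. Of the 23 erythroid markers tested, 22 were lower in Tet2KO against WT. The 23 stem and multipotent markers summed to 591 to 605 CPM in WT, 660 to 673 in Id1KO, 660 to 677 in Tet2KO and 583 to 594 in dKO, and 13 of 21 tested were higher in Tet2KO against WT and 1 was lower. The 15 neutrophil granule markers summed to 14700 to 14800 CPM in WT, 12500 to 13500 in Id1KO, 16200 to 16400 in Tet2KO and 12200 to 13400 in dKO. These sums do not stand for every marker of the list. Of 15 tested, 8 were higher and 4 lower in Tet2KO against WT. Against WT, 1 was higher and 2 lower in Id1KO, and 5 were higher and 5 lower in dKO. Of 16 markers of mast cells, basophils and eosinophils, the mast cell proteases Tpsb2 and Tpsab1 were at 0 in all libraries.

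Among the lists, 2 had sums that split by the Tet2 label without overlap. The markers of mast cells, basophils and eosinophils summed to 513 to 532 CPM in WT and 602 to 607 in Id1KO, and to 482 to 491 in Tet2KO and 410 to 419 in dKO. Of 12 tested, 3 were higher and 4 lower when Tet2KO was compared with WT, and 1 was higher and 7 lower for dKO over Id1KO. The 17 monocyte and dendritic markers summed to 1960 to 2030 CPM in WT and 1790 to 1800 in Id1KO, and to 2240 to 2280 in Tet2KO and 2180 to 2210 in dKO. Of 14 tested, 6 were higher and 2 lower in each of these 2 comparisons. The 13 megakaryocyte markers summed to 311 to 337 CPM in the libraries labelled WT, Tet2KO or dKO and to 388 to 396 in Id1KO, and the 23 lymphoid markers to 366 to 370 in Tet2KO and 277 to 328 in the others. The part of these shifts in the values below was not tested, and in such bulk samples fewer cells of a type and less RNA per cell cannot be told apart.

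The sequences before the start sites are shown for Hoxa9 and Hoxa10, which were low together with both Tet2-null labels, and for Meis1, which was not. They come from RefSeq (GRCm38.p6), whose table held 7 windows for 6 of the 8 genes, with none for Pbx3 and Mn1. Each is written 5′ to 3′ on the gene's strand, here the minus strand, and holds no annotated exon of GENCODE M21. Hoxa7 was low with both Tet2-null labels too, but an annotated exon lies in its stretch, which is therefore not shown. Capitals mark CG dinucleotides, the main place of cytosine methylation, which was not measured in these libraries. Hoxa9 is at chr6:52227371-52227620, the first Hoxa10 start at chr6:52234940-52235189, the second at chr6:52240855-52241104 and Meis1 at chr11:19018986-19019219.
Hoxa9: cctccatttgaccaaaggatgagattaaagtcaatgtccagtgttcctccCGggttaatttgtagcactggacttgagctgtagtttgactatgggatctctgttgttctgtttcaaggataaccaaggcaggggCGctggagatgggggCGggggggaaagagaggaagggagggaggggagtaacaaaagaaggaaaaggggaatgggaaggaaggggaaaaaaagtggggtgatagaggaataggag
Hoxa10, first start: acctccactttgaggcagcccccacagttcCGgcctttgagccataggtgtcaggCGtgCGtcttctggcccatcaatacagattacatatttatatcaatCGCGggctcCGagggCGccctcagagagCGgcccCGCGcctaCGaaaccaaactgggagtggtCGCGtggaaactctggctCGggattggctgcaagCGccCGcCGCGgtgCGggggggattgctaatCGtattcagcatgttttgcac
Hoxa10, second start: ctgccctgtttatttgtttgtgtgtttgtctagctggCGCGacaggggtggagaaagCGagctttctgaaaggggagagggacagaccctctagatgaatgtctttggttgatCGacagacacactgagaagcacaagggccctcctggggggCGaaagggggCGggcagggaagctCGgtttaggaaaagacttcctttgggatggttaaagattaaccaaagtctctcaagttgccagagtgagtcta
Meis1: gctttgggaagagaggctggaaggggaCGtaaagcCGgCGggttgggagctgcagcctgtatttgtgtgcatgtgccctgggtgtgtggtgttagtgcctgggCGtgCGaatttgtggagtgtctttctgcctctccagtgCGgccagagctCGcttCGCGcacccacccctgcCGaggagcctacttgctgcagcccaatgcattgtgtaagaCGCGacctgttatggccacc

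The Hoxa9 stretch holds 3 CG dinucleotides in 250 bases, the Hoxa10 stretches hold 20 and 7, and the Meis1 stretch holds 12 in 234. Over whole windows of 300 bases, from 250 before the start to 50 after it, the counts were 29 for Hoxa5, 9 for Hoxa7, 4 for Hoxa9, 21 and 12 for Hoxa10, 14 for Hoxb4 and 15 for Meis1. The median over all 32851 windows of the table was 7, so Hoxa9 lay below it and the other 6 windows above it. The Hoxa9 and Hoxa7 windows lie within the annotated spans of these genes, so any start further upstream was not counted. A link between CG content and the levels was not tested.

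Short binding motifs were searched on both strands of the 7 windows, as a description. The Hox and Pbx motif TGATTNAT, present in 3.2% of all windows, was in none of the 7. The Meis motif TGACAG, present in 19.2% of all windows, was in none, and neither was the Hox motif TTTATNG, present in 10.9%. The CCAAT box, CCAAT, is present in 37.4% of all windows and was in 3 of the 7. These 3 matches are shown with 8 flanking bases, with the motif or its reverse complement in capitals. Counted from the start site, they begin at -204 in Hoxa5, at -64 before the first start of Hoxa10 and at -54 in Meis1.
Hoxa5: gcctcacaATTGGtacatcct
Hoxa10: ggctcgggATTGGctgcaagc
Meis1: gctgcagcCCAATgcattgtg

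Per kilobase of merged exon, Meis1, Hoxa9 and Hoxa7 led the 8 genes in libraries labelled WT, at 4.37 ± 0.2, 4.26 ± 0.13 and 4.23 ± 0.28 CPM per kb. These 3 levels did not differ beyond their spread. The lengths merge all annotated exons, used or not, so the order between genes depends on them. Hoxb4 followed at 1.98 ± 0.092 and Pbx3 at 1.02 ± 0.051 CPM per kb, each apart from its neighbours. Hoxa5 was at 0.661 ± 0.13, Mn1 at 0.412 ± 0.057 and Hoxa10 at 0.305 ± 0.094 CPM per kb, and the last 2 lay within each other's spread. In libraries labelled Tet2KO, Meis1 stood apart at 5.67 ± 0.18 CPM per kb, above Hoxa7 at 3.05 ± 0.36, Hoxb4 at 2.54 ± 0.41 and Hoxa9 at 2.48 ± 0.24, whose spreads touched.

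**Figure D1:**
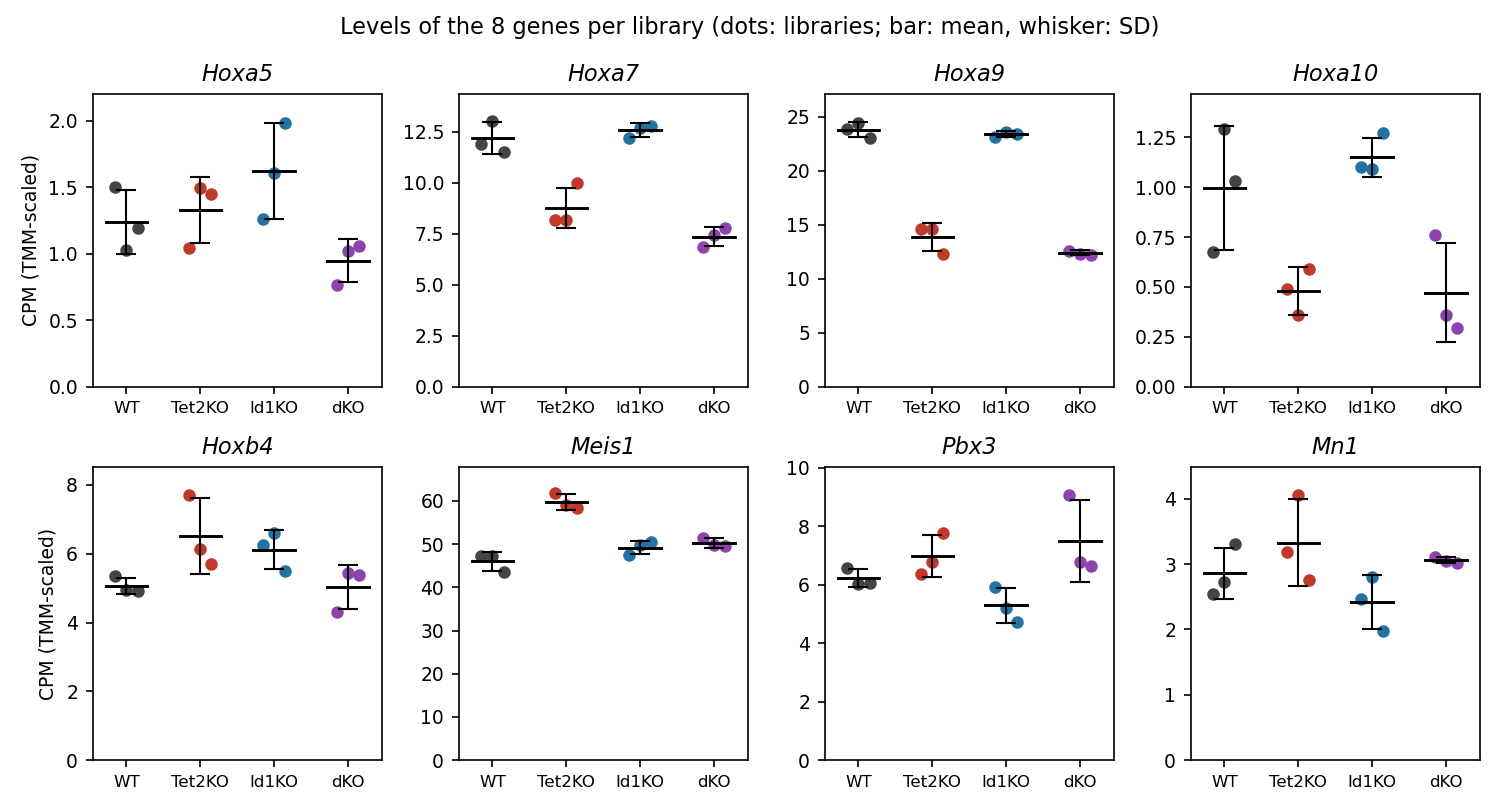
CPM of each of the 8 genes (vertical axes from 0, each gene on its own scale) in the 12 libraries, by genotype label, with dots for libraries, a bar for the mean and whiskers for the SD. Hoxa9 and Hoxa7 are lower in all libraries labelled Tet2KO or dKO than in all labelled WT or Id1KO, and Meis1 is highest in the 3 labelled Tet2KO.

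Hoxa9, which supports self-renewal of stem and progenitor cells, showed the clearest split by Tet2 label. Its gene lies on the minus strand of chromosome 6, from 52223100 to 52231089 (GRCm38). Its level was 23.9, 24.4 and 23 CPM in the libraries labelled WT and 23.1, 23.6 and 23.4 in Id1KO. It was 14.6, 14.6 and 12.3 CPM in Tet2KO and 12.6, 12.3 and 12.2 in dKO. All 6 libraries with a Tet2-null label lay below all 6 others, with no overlap. Tet2KO differed from WT by a log2 fold change of -0.78 ± 0.07 (SE), and dKO from Id1KO by -0.92 ± 0.072. With the Id1 label it was -0.02 ± 0.063 in Id1KO against WT and -0.16 ± 0.079 in dKO against Tet2KO.

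Hoxa7, its neighbour in the cluster (chromosome 6, 52214491 to 52221854, minus strand), had the same order. Its level was 11.9, 13 and 11.5 CPM in WT and 12.2, 12.7 and 12.8 in Id1KO. It was 8.15, 8.16 and 9.96 CPM in Tet2KO and 6.85, 7.42 and 7.8 in dKO. Again the libraries with and without a Tet2-null label did not overlap, and all 3 labelled dKO lay below all 3 labelled Tet2KO. On the log2 scale Tet2KO differed from WT by -0.47 ± 0.096 and dKO from Id1KO by -0.77 ± 0.1. Hoxa7 shares 586 exonic bases, 20.4% of its exons, with the antisense gene Hoxaas3, which had 1 to 18 counts per library, and the strand setting of the counting is not given in the sources used here. Summed with Hoxaas3, the 2 changes were -0.47 and -0.75.

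Hoxa10, the most 5′ gene of the HoxA cluster with any count, was near the limit of detection, with 5 to 25 counts per library. It stood at 0.674, 1.29 and 1.03 CPM in WT, 1.1, 1.09 and 1.27 in Id1KO, 0.49, 0.357 and 0.592 in Tet2KO and 0.761, 0.359 and 0.295 in dKO. The Tet2KO libraries lay below the WT libraries and the dKO libraries below the Id1KO libraries, while WT and dKO overlapped. Tet2KO stood -1.03 ± 0.37 from WT on the log2 scale, and dKO -1.29 ± 0.38 from Id1KO. Leaving out WT replicate 2 gave -0.8 in the first, and leaving out dKO replicate 1 gave -1.79 in the second.

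Between the labels dKO and WT, Hoxa9 was at -0.94 ± 0.072, Hoxa7 at -0.72 ± 0.1 and Hoxa10 at -1.08 ± 0.38 on the log2 scale. The dKO and WT libraries of Hoxa9 and Hoxa7 did not overlap. Between these labels 9 of 23 erythroid markers were higher and 2 lower, with overlapping sums, and the mast cell and monocyte sums moved as given above. Their part in the Hox values was not tested.

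Hoxa5, a HoxA gene toward the 3′ side, did not follow that order. Its level was 1.5, 1.03 and 1.19 CPM in WT, 1.26, 1.61 and 1.98 in Id1KO, 1.04, 1.49 and 1.45 in Tet2KO and 0.761, 1.02 and 1.06 in dKO, from 12 to 36 counts per library. WT and Tet2KO overlapped, and dKO lay below Id1KO. Log2 fold changes were 0.1 ± 0.26 for Tet2KO over WT and -0.76 ± 0.27 for dKO over Id1KO.

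Hoxb4, the HoxB member and a gene used to expand stem cells in culture, was higher in Tet2KO than in WT and lower in dKO than in Id1KO. It stood at 5.34, 4.95 and 4.92 CPM in WT, 6.26, 6.61 and 5.5 in Id1KO, 7.72, 6.14 and 5.71 in Tet2KO and 4.31, 5.45 and 5.38 in dKO. WT lay below Tet2KO and below Id1KO, and dKO lay below both single labels. Against WT, Tet2KO was at a log2 fold change of 0.36 ± 0.13, while dKO was at -0.28 ± 0.13 against Id1KO. The difference between these 2 changes, the interaction, was -0.64 ± 0.19. The Tet2KO value rests partly on replicate 1, without which it was 0.22.

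Meis1, the TALE partner that binds with Hoxa9 and Pbx proteins, was highest in the libraries labelled Tet2KO. Its level there was 61.9, 59 and 58.3 CPM, against 47.3, 47.2 and 43.5 in WT, 47.4, 49.7 and 50.4 in Id1KO and 51.5, 49.8 and 49.5 in dKO. No other library reached the Tet2KO range, and Id1KO and dKO overlapped. Its log2 fold change was 0.38 ± 0.046 for Tet2KO over WT, 0.03 ± 0.047 in dKO against Id1KO and -0.25 ± 0.046 in dKO against Tet2KO, with an interaction of -0.34 ± 0.065. Meis1 shares 1029 exonic bases with Gm37818 on its own strand, a gene with 32 to 58 counts per library, and 896 with the antisense gene Gm16140. Summed with Gm37818, the change in Tet2KO against WT was 0.39.

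Pbx3, another TALE partner, stood at 6.58, 6.03 and 6.05 CPM in WT, 5.93, 5.2 and 4.73 in Id1KO, 6.37, 6.79 and 7.76 in Tet2KO and 9.06, 6.76 and 6.62 in dKO. Only the dKO and Id1KO, dKO and WT, and Id1KO and WT libraries were apart among the 5 pairs compared. The log2 fold change was 0.5 ± 0.13 in dKO against Id1KO, and 0.34 without dKO replicate 1. In Tet2KO against WT it was 0.17 ± 0.13.

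Mn1 stood at 2.54, 2.73 and 3.3 CPM in WT, 2.47, 2.81 and 1.98 in Id1KO, 3.19, 4.05 and 2.75 in Tet2KO and 3.11, 3.05 and 3.01 in dKO. Its libraries overlapped in every comparison but dKO against Id1KO, where the log2 fold change was 0.33 ± 0.18. It passed the threshold in none of the 6 comparisons.

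**Figure D2:**
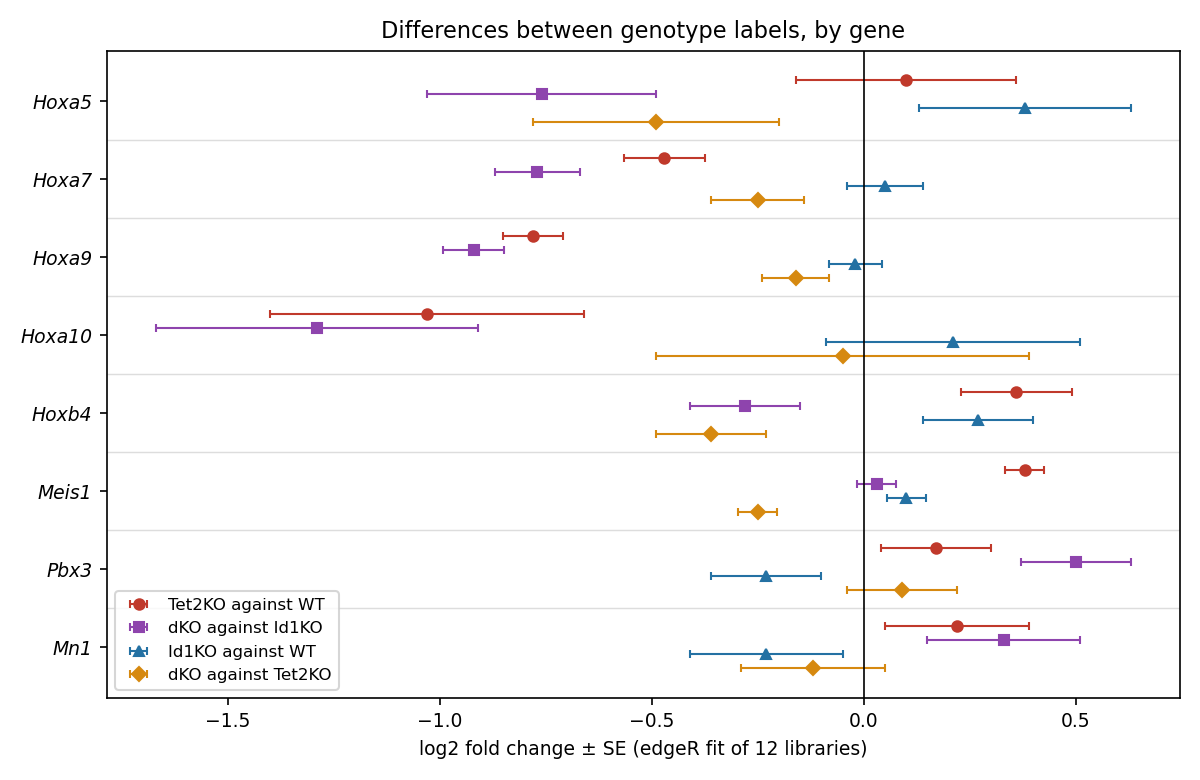
Log2 fold change (horizontal axis, with its SE) of the 8 genes in 4 comparisons of genotype labels, from the fit of all 12 libraries. Hoxa7, Hoxa9 and Hoxa10 lie left of 0 in both comparisons across the Tet2 label, Hoxa9 at -0.78 and -0.92, and near 0 in Id1KO against WT.

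Counted over the 8 genes, 5 passed the threshold (edgeR adjusted p under 0.05) when Tet2KO was compared with WT, where 33.8% of all tested genes did. Meis1 and Hoxb4 were higher, beside 17.1% of all genes, and Hoxa7, Hoxa9 and Hoxa10 lower, beside 16.7%, and the same 5 had no overlap of libraries, against a background of 46.0%. In dKO against Id1KO 5 passed, beside 20.5% of all genes: Pbx3 higher (background 11.3%), and Hoxa5, Hoxa7, Hoxa9 and Hoxa10 lower (9.28%). There 7 had no overlap, beside 33.2%. In dKO against WT 4 passed, beside 20.6%: Meis1 higher (background 11.0%), and Hoxa7, Hoxa9 and Hoxa10 lower (9.54%), with 4 apart in their libraries beside 33.1%. As the genes were chosen with these values known, the counts are a description.

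Across the Id1 label fewer passed. In Id1KO against WT edgeR called 0 of 8, beside 16.2% of all genes (7.81% higher, 8.34% lower), with 2 at an unadjusted p under 0.05 (Hoxb4 and Meis1), and DESeq2 also called 0, with no adjusted p for Hoxa5 and Hoxa10. There 3 of 8 had no overlap, beside 32.7%. In dKO against Tet2KO 2 passed, Hoxb4 and Meis1, both lower, beside 27.4% (13.6% higher, 13.8% lower), and 3 had no overlap, beside 39.9%. In the interaction Hoxb4 and Meis1 passed, both below 0, beside 15.6% (8.07% above 0, 7.50% below). Over the 8, the median log2 fold change was 0.14 for Tet2KO over WT, -0.52 for dKO over Id1KO, 0.07 in Id1KO against WT and -0.2 in dKO against Tet2KO, against -0.003, -0.002, -0.008 and 0 over all tested genes.

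Single libraries moved these counts. In Tet2KO against WT 3 genes passed without WT replicate 2, WT replicate 3 or Tet2KO replicate 1, and 3 with DESeq2. In dKO against Id1KO 3 passed without dKO replicate 1 or dKO replicate 3. In dKO against WT 2 passed without WT replicate 3, dKO replicate 2 or dKO replicate 3, with DESeq2 or with only the libraries compared. In dKO against Tet2KO and in the interaction 1 passed without Tet2KO replicate 1, without dKO replicate 1 or with DESeq2, and in the former also with only the libraries compared. Hoxa7 and Hoxa9 passed in all 12 fits that left out 1 library, in Tet2KO against WT, in dKO against Id1KO and in dKO against WT. These refits use the values known when the genes were chosen, so they are a description too.

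With the 3 libraries of a genotype summed into 1 and both labels as additive terms, 490 genes, 3.42% of those tested, passed for the Tet2 label. Hoxa7 at -0.61 and Hoxa9 at -0.85 on the log2 scale were among them, and Hoxa10 at -1.17 was not. For the Id1 label 27 genes passed, or 0.188%, and none of the 8. This fit has 1 residual degree of freedom. As the 8 genes were chosen with their values known, it describes them and is no independent test.

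In Tet2KO against WT, where Hoxa9 was lower and Meis1 higher, the ratio of the pair differed more than either gene. Per exonic base, Hoxa9 relative to Meis1 was 0.954, 0.976 and 0.996 in WT, 0.921, 0.897 and 0.878 in Id1KO, 0.447, 0.467 and 0.399 in Tet2KO and 0.462, 0.467 and 0.464 in dKO. The 6 libraries with a Tet2-null label lay below the other 6. Hoxa7 relative to Meis1 was 0.968 ± 0.045 in WT, 0.938 ± 0.0055 in Id1KO, 0.538 ± 0.077 in Tet2KO and 0.536 ± 0.046 in dKO. A ratio within a library does not depend on how libraries are scaled, but its size depends on the exon lengths used.

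**Figure D3:**
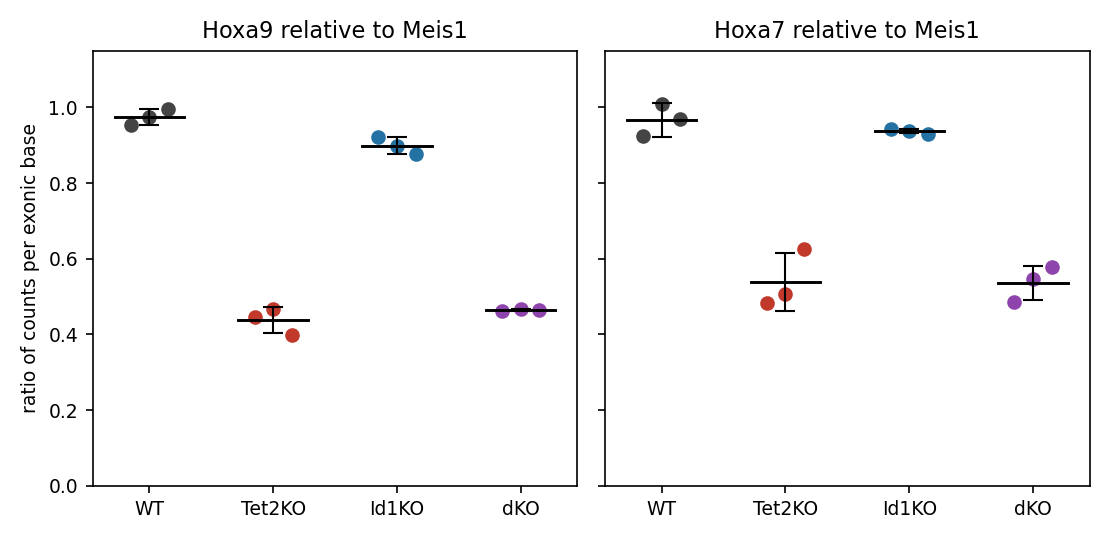
Counts per exonic base of Hoxa9 (left) and Hoxa7 (right) relative to Meis1 (vertical axis from 0, a ratio without unit) in each library, with the mean and SD. The libraries labelled Tet2KO and dKO lie at or below 0.626 and those labelled WT and Id1KO at or above 0.878.

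Hoxa9 and Hoxa7 made up most of the HoxA cluster's counts. The summed level of its 11 genes was 41.5 ± 1 CPM in WT, 41.8 ± 0.86 in Id1KO, 26.8 ± 0.54 in Tet2KO and 23.6 ± 0.32 in dKO. Hoxa9 took 57.2 ± 0.47% of the cluster's counts in WT, 56.0 ± 0.57% in Id1KO, 51.8 ± 5.9% in Tet2KO and 52.4 ± 1.6% in dKO. Hoxa7 took 29.3 ± 1.2%, 30.1 ± 0.26%, 32.6 ± 3.3% and 31.1 ± 1.7% in the same order. Hoxa11 and Hoxa13, at the 5′ end, were at 0 in all libraries. The HoxB cluster summed to 7.29 ± 0.79 CPM in WT, 8.31 ± 0.73 in Id1KO, 9.46 ± 0.62 in Tet2KO and 7.65 ± 0.73 in dKO. The HoxC genes together had at most 6 counts in a library and the HoxD genes 0.

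**Figure D4:**
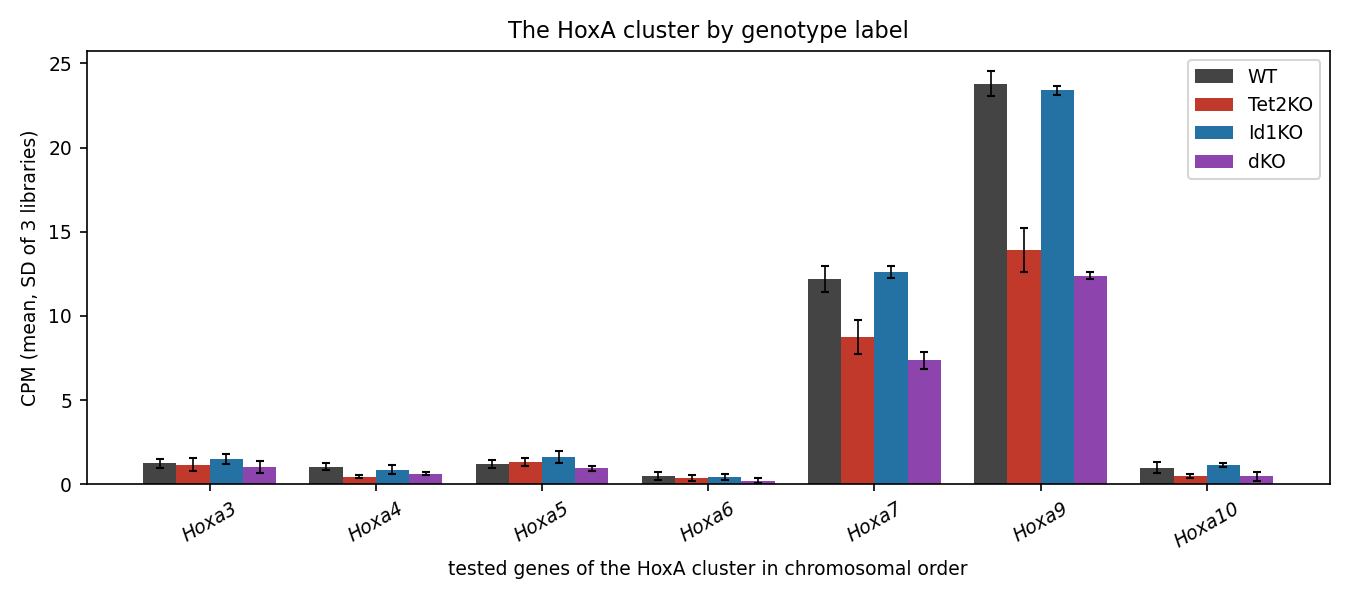
Mean CPM (vertical axis from 0, with the SD of 3 libraries) of the 7 tested HoxA genes in chromosomal order, by genotype label. Hoxa7 and Hoxa9 stand above the rest, Hoxa9 at 23.8 CPM in WT and 13.9 in Tet2KO.

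Of the 34 other Hox genes, 21 were at 0 in all libraries and 5 were tested. Hoxa4, a HoxA gene on the 3′ side, fell in Tet2KO against WT from 1.05 ± 0.21 to 0.466 ± 0.074 CPM, by 1.16 ± 0.36 on the log2 scale (edgeR adjusted p 0.00744). In dKO against Id1KO it was at -0.44 ± 0.34 (edgeR adjusted p 0.4). Hoxa4 had only 7 to 23 counts per library, and it did not pass for the Tet2 label in the summed libraries. No other of the 5 passed in any of the 6 comparisons. Hoxb3 stood at 1.61 ± 0.26 CPM in WT against 2.01 ± 0.079 in Tet2KO, and Hoxa3 at 1.26 ± 0.26 against 1.16 ± 0.39. Of the noncoding genes of the clusters, 17 are in the table and 2 were tested. Hoxb3os fell in dKO against Tet2KO by 1.37 ± 0.46 on the log2 scale (edgeR adjusted p 0.0156), from 0.791 ± 0.074 to 0.302 ± 0.21 CPM, a call lost without Tet2KO replicate 3 or dKO replicate 1 or 3 (up to 0.0961). Hoxaas3 fell in dKO against WT by 1.28 ± 0.5 (0.0463), a call kept in 2 of 12 fits that left out 1 library, and at -0.8 (0.27) without dKO replicate 2. Hotairm1, a noncoding gene of the HoxA cluster, had at most 7 counts and was not tested.

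Of 10 other genes of the TALE class or its interactors, 7 were tested. Tgif1, a TALE repressor, fell in Id1KO against WT by 0.17 ± 0.047 on the log2 scale (edgeR adjusted p 0.0122), a call lost without Id1KO replicate 3 (0.0596). Pbx2, at 43.9 ± 1.4 CPM in WT and 46.4 ± 1.2 in Tet2KO, and Pknox1, at 43.1 ± 1.2 and 41.4 ± 1.3, passed in none of the 6 comparisons.

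Among 27 tested regulators of Hox genes, 11 rose and 4 fell in Tet2KO against WT, with a median log2 fold change of 0.05. That is 55.6% of them, beside 33.8% of all tested genes. The list was chosen with earlier results of these data known, so its shares are a description. For dKO over Id1KO 7 rose and 2 fell (33.3% beside 20.5%), for Id1KO over WT 5 and 1 (22.2% beside 16.2%), and for dKO over Tet2KO 8 and 8 (59.3% beside 27.4%). Kmt2a, the gene of the methyltransferase MLL and named here after its values were seen, rose from 118 ± 8.1 CPM in WT to 166 ± 2 in Tet2KO, by 0.49 ± 0.039 (edgeR adjusted p 1.38e-11). It rose by 0.34 ± 0.039 in dKO against Id1KO (6.54e-08). Mllt3, a fusion partner of MLL that takes part in transcription elongation, fell in Tet2KO against WT from 29.3 ± 0.97 to 22 ± 0.38 CPM, by 0.41 ± 0.066 on the log2 scale (edgeR adjusted p 4.07e-06). It rose in dKO against Tet2KO by 0.42 ± 0.067 (5.7e-06). Dot1l, the H3K79 methyltransferase, rose in dKO against Id1KO by 0.42 ± 0.064 (0.000138), from 54.7 ± 2.9 to 73.4 ± 3.5 CPM. Npm1, a nucleolar chaperone whose mutation accompanies high HOXA levels in leukemia, fell by 0.15 ± 0.028 in Tet2KO against WT (5.38e-05). In the summed libraries Kmt2a passed for the Tet2 label, and Mllt3, Dot1l and Npm1 did not. Nup98, a nucleoporin and fusion partner of HOXA9, rose by 0.1 ± 0.029 in dKO against Id1KO (0.0098), and Suz12, a Polycomb subunit, rose by 0.12 ± 0.033 in dKO against Tet2KO (0.00533), a call lost without Tet2KO replicate 3 (0.0656) or dKO replicate 2 (0.073).

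Genes reported as bound or regulated by Hoxa9 or Meis1 moved in both directions. Of 32 tested, 14 rose and 7 fell in Tet2KO against WT, or 65.6% beside 33.8% of all tested genes. This list too was chosen with earlier results known, so its shares are a description. The numbers that rose and fell were 8 and 9 for dKO over Id1KO (53.1% beside 20.5%), 6 and 10 for Id1KO over WT (50% beside 16.2%), and 4 and 18 for dKO over Tet2KO (68.8% beside 27.4%). Flt3, a cytokine receptor gene, rose from 68.9 ± 0.8 CPM in WT to 99.4 ± 0.94 in Tet2KO, by 0.53 ± 0.038 (edgeR adjusted p 2.28e-14), and by 0.22 ± 0.04 in dKO against Id1KO (4.34e-05). Camk2d, a calcium-dependent kinase gene, rose from 7.85 ± 0.76 to 12.4 ± 1.4 CPM, by 0.66 ± 0.098 (1.1e-06), and by 0.45 ± 0.092 in dKO against Id1KO (0.000298). Camk2d was not particular to the Tet2 label, as it also rose in Id1KO against WT, by 0.47 ± 0.099 (0.000639). Trib2, a pseudokinase gene, fell from 35.1 ± 2 to 22.2 ± 1.2 CPM in Tet2KO against WT, by 0.66 ± 0.059 (1.38e-11). For dKO over Id1KO, Trib2 was at -0.12 ± 0.057 (0.128). Cdk6, a cell cycle kinase gene, stood at 1080 ± 54 CPM in WT and 1270 ± 17 in Tet2KO, a rise of 0.24 ± 0.029 (1.27e-08). Myb, a progenitor transcription factor gene, fell by 0.1 ± 0.024 in Tet2KO against WT (0.000683). In the summed libraries Flt3, Camk2d and Cdk6 passed for the Tet2 label, and Trib2 and Myb did not.

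Other genes of that list stood out across the Id1 label or in dKO. In the summed libraries no listed gene passed for the Id1 label, and the p-values here measure only the spread between libraries. Pim1, a kinase gene, rose in Id1KO against WT from 103 ± 3.4 to 157 ± 1.6 CPM, by 0.61 ± 0.032 (edgeR adjusted p 1.11e-17). Prdm16, a stem cell regulator, rose there from 2.22 ± 0.41 to 4.67 ± 0.52 CPM, by 1.07 ± 0.17 (6.04e-06). Fos fell by 0.34 ± 0.03 (5.14e-11) and Cd34, a progenitor surface marker, by 0.28 ± 0.026 (1.1e-10). Mecom, a stem cell transcription factor gene, fell in dKO against Id1KO from 4.6 ± 0.45 to 2.44 ± 0.3 CPM, by 0.91 ± 0.16 (3.08e-05). Hlf, another stem cell factor gene, fell in dKO against Tet2KO by 0.59 ± 0.094 (5.37e-06), and Eya1 fell in dKO against WT by 0.35 ± 0.096 (0.0063). Mecom also fell in dKO against Tet2KO by 0.54 ± 0.17 (0.0126), a call lost without dKO replicate 1 (0.0738). Prdm16 fell in dKO against Id1KO by 0.44 ± 0.16 (0.0379), a call lost without Id1KO replicate 1 or 2 or dKO replicate 1 or 3 (up to 0.21). It rose in dKO against WT by 0.63 ± 0.18 (0.00756), a call lost without WT replicate 1 (0.0648) or dKO replicate 2 (0.0615). With DESeq2 in place of edgeR, 4 calls given for single genes were lost: Prdm16 in dKO against Id1KO (adjusted p 0.161), Tgif1 in Id1KO against WT (0.0544), Mecom in dKO against Tet2KO (0.0564) and Hoxaas3 in dKO against WT (0.168).

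The 8 genes did not move as 1 group over the 12 libraries. Pearson's r of log2 CPM with Hoxa9 was 0.92 for Hoxa7, 0.83 for Hoxa10, 0.48 for Hoxa5 and 0.02 for Hoxb4. It was -0.72 for Pbx3, -0.6 for Meis1 and -0.5 for Mn1. Among 9813 genes with a mean of at least 5 CPM, those most like Hoxa9 were Syde2 at 0.984, Rps6ka2 at 0.977, Slc15a2 at 0.977, Olr1 at 0.976 and Vegfa at 0.972. Syde2 stood at 17.7 ± 1.8 CPM in WT, 16.5 ± 1.3 in Id1KO, 8.03 ± 0.73 in Tet2KO and 7.68 ± 0.46 in dKO. Those most like Meis1 were Fry at 0.957, Pdgfrb at 0.948, Lpgat1 at 0.947, Ffar2 at 0.941 and Lbp at 0.94. These correlations are descriptions over libraries that fall into 4 genotype labels and may share a cell sample within each.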

How the data were processed

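Per the labels' protocols, ribosomal RNA was depleted and stranded libraries were made from total RNA. The authors deposited expected counts per gene, not normalized, for 12 libraries. The submitters' processing notes name STAR, RSEM and mm10. Versions, annotation release and strand setting are not given in the sources used here. All 55450 identifiers matched GENCODE M21 (GRCm38), which gave positions and exonic lengths.

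The members, the gene lists and the rule for named genes were chosen with earlier results of these data known. Members therefore get log2 fold changes with SE but no p, and counts of members past the threshold are a description. Estimated counts were rounded, filtered with filterByExpr (minimum count 10), scaled by TMM and fitted over all 12 libraries with edgeR's quasi-likelihood test, two-sided, adjusted by Benjamini-Hochberg over 14346 genes with a threshold of 0.05. Named genes of the lists were the 2 highest and 2 lowest among called genes with a mean of 2 CPM or more in either group, per comparison, and the 3 most abundant of each list. Likeness used log2(CPM + 0.5). CG counts, motif searches and stretches used the RefSeq windows. All 4 motifs searched are reported. Values of 2 genes of the lists are not reported here.

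All 12 pairs of libraries of 1 genotype differed by more than sampling noise and were kept apart. The suffix in the titles was read as replicate number. Alternatives were RLE and upper-quartile scaling, DESeq2, 2 other filters, a replicate block, a threshold of 0.01, fits without 1 library and fits of only the compared libraries. Sums of members with overlapping genes were added after the data were seen. The steps were tested on simulated data. Fits used edgeR 4.0.16 and DESeq2 1.42.0 with limma 3.58.1 under R 4.3.3, and figures used matplotlib 3.10.9 and pandas 2.3.3 under Python 3.11.15.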

Additional observations from a re-analysis of the deposited data

Results flagged for a closer look

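Several genes were singled out because the change with 1 label differed with the other label. By edgeR's interaction test, the log2 difference between the change in dKO against Id1KO and that in Tet2KO against WT was -0.3 for Flt3 (adjusted p 9.83e-05), 0.53 for Trib2 (9.02e-06), 0.44 for Mllt3 (0.000662) and -0.44 for Pim1 (3.48e-09). It was 0.19 for Npm1 (0.000618), -0.47 for Hlf (0.0116), -0.85 for Prdm16 (0.01) and -0.64 for Mecom (0.0382). The Mecom call was kept in 4 of 12 fits that left out 1 library, with an adjusted p of up to 0.113 without dKO replicate 1. With DESeq2 the adjusted p was 0.146 for Mecom, 0.0527 for Prdm16 and 0.054 for Hlf.

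Hoxb4 was higher in all Tet2KO than WT libraries and lower in all dKO than Id1KO libraries, and likewise went opposite ways in the 2 comparisons across the Id1 label, with a difference of -0.64. Meis1 was higher in all Id1KO than WT libraries and lower in all dKO than Tet2KO libraries, with a difference of -0.34. Its lowest Id1KO library stood at 47.4 CPM and its highest WT library at 47.3. Neither gene passed the threshold in Id1KO against WT, and Hoxb4 did not in dKO against Id1KO. The differences of -0.64 and -0.34 passed the threshold of edgeR's interaction fit. As both genes were chosen with these values known, that is a description and no independent test was made.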

How the results depend on the processing

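Of 915 log2 fold changes of the 8 genes under other settings, 913 moved by less than the SD between libraries. The other 2 were the interaction of Hoxa9, -0.22 without Tet2KO replicate 3, and that of Hoxa10, -0.77 without dKO replicate 1. Measured against their SE, 10 moved by more, each in a fit without 1 library. The sign turned in 9, none of them past the threshold, and their main values were at most 0.21 in size. Of the listed genes, 23 passed in Id1KO against WT and 20 in the interaction, but 15 and 12 at a threshold of 0.01. In the summed libraries 7 of 73 listed genes passed for the Tet2 label, but 14 with no filter and 2 at a threshold of 0.01, and 0 for the Id1 label (20 at an unadjusted p under 0.05), but 1 with RLE scaling and 7 with no filter. The cause was not tested, other than that a lower threshold passes fewer genes.

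Whether the replicate numbers pair the libraries was not settled. Same-numbered libraries correlated at -0.282 to 0.307 (median 0.08), and libraries with different numbers at -0.321 to 0.454 (median -0.037). Of 12 libraries, 6 correlated best with their own number. With a replicate block 36 listed genes passed in Tet2KO against WT (38 without it) and 5 of the 8 genes, as before. Counts of 5 to 36 per library limit Hoxa5 and Hoxa10.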
